A study of Mus musculus with 12 samples.

Results

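The subject is a group of 5 genes outside the major histocompatibility complex (MHC), followed across genotypes in mouse alveolar macrophages: Fbp1, Hpse, Armcx2, Klk8 and Plpp3. They are 5 of 23118 genes or transcripts tested, and they were chosen by their measured log2 signal, which differed between Bach1 knockout (B1KO) and wild-type (WT) cells. The choice used the WT and B1KO arrays, so every value that rests on those arrays is given below as a description, without a test. The comparison of Bach1/Bach2 double knockout (DD) cells with Bach2 knockout (B2KO) cells is the one test of the 5 genes: its means use none of those arrays, while its error is estimated from all 12 arrays.

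Alveolar macrophages were sorted by flow cytometry from lung lavage of female C57BL/6 mice aged 8 to 9 weeks. There were 4 genotypes: WT, B1KO, B2KO and DD, the last lacking both genes, with 3 independent mice each. Amplified, Cy3-labelled RNA of each mouse was read on 1 single-colour Agilent array, 12 arrays in all. The labels name the knocked-out genes but give no allele, no Cre driver and no breeding scheme. Levels are log2 signals minus the array's 75th percentile, so 0 is the 75th percentile of that array and a difference of 1 is a doubling. A probe counts as detected where the scanner software called its spot well above background.

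Bach1 and Bach2 are related transcription repressors of the basic leucine zipper family that pair with small Maf proteins and bind Maf recognition and antioxidant response elements. Heme releases Bach1 from such elements, and the genes for heme oxygenase, ferroportin and glutathione synthesis are its textbook targets. Bach2 is best known from lymphocytes, and alveolar macrophages of Bach2-deficient mice have been described as altered in lipid handling. The 5 genes have unrelated products. Fbp1 encodes fructose-1,6-bisphosphatase, a gluconeogenic enzyme that removes a phosphate from fructose 1,6-bisphosphate. Hpse encodes heparanase, which cuts heparan sulfate chains. Armcx2 encodes a member of an X-linked family of armadillo-repeat proteins, some of which sit on mitochondria. Klk8 encodes a secreted serine protease of the kallikrein family. Plpp3 encodes a membrane phosphatase that removes the phosphate from lysophosphatidic acid and sphingosine 1-phosphate outside the cell.

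Promoters are shown for Fbp1, Hpse and Armcx2 because these genes moved in the same directions across the genotypes. Each sequence runs 5′ to 3′ over the 250 bases before the RefSeq start on build GRCm38.p6, in lower case, with any match to a searched motif in capitals.
Fbp1 (chr13:62888283-62888532, minus strand): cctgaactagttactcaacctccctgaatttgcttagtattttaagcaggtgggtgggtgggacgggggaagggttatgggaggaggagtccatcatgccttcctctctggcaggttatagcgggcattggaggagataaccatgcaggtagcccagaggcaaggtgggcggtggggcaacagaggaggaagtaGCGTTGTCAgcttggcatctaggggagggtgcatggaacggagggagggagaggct
Hpse (chr5:100719717-100719966, minus strand): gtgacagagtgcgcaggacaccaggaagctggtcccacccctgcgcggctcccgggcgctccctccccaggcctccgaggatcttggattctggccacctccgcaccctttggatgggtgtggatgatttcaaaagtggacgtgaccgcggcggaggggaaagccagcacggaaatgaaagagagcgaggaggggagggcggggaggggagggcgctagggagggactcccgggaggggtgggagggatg
Armcx2 (chrX:134809222-134809471, minus strand): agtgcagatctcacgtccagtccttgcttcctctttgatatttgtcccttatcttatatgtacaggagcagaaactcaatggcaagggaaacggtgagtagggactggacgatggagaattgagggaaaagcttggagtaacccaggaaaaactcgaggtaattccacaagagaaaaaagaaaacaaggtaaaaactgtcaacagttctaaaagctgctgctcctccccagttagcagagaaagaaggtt
The motifs searched on both strands were TGANTCA and TGACNNNGC, the cores of elements bound by Bach and small Maf proteins, over the window from 250 bases before to 50 after the start. All 5 genes matched 1 RefSeq promoter. Fbp1 held 1 match, to TGACNNNGC on the reverse strand, and read on the printed strand the matching letters GCGTTGTCA begin 56 bases before the start. Of 32851 mouse promoter windows of 300 bases, 12.4% held TGACNNNGC and 7.81% held TGANTCA, so 19% held either. No match was found in the windows of Hpse, Armcx2, Klk8 or Plpp3, which says only that these letters are not there. A match is a string of letters and no measure of binding.

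Before the values, the arrays themselves stood as follows. The scanner software called 45.2% to 72.4% of the 59305 spots of an array well above background, and saturation was not seen on any array. WT replicate 3 and B1KO replicate 3 stood apart from the other arrays of their genotypes on the third principal component, at 123.1 and -75.9, which held 7.55% of the variance. All WT and B1KO arrays and 2 of the 3 B2KO arrays shared 1 slide. On it the WT arrays and B1KO replicate 1 lay in row 1, and B1KO replicates 2 and 3 in row 2. Slide row and genotype are thus partly confounded in B1KO minus WT. The 3 DD arrays lay on another slide scanned on another day, so for every DD comparison genotype and slide cannot be told apart. The Bach1 probe read 3.93 in WT, 2.50 in B1KO, 3.94 in B2KO and 2.48 in DD, a difference of -1.43 ± 0.32 (SE, adjusted p = 0.3045, limma) for B1KO minus WT. It was lower on each Bach1-deficient array than on each array with Bach1. The 2 Bach2 probes, dim in all genotypes, differed by 0.30 ± 0.64 (SE) and -0.52 ± 1.25 in B2KO minus WT and do not check the Bach2 label. The position of these probes against the deleted exons was not examined. All 11 alveolar macrophage markers were well above background on all 12 arrays, although 9 of them fell in B2KO minus WT, as given below.

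Fbp1 differed between all 4 genotypes. Its log2 level was -0.95, -0.55 and -0.07 on the WT arrays and -6.52, -6.13 and -6.26 on the B1KO arrays. It was 5.73, 6.11 and 5.05 on the B2KO arrays and 1.24, 1.61 and 1.997 on the DD arrays. The 4 genotypes did not overlap, in the order B1KO, WT, DD and B2KO from low to high, and the B1KO spots were all at background. The mean was -0.52 ± 0.44 (SD, n = 3) in WT and -6.30 ± 0.20 in B1KO, a level at least 34.9-fold lower with the main background correction. For that bound each B1KO array entered at its lowest detected signal, or at the spot's own signal where that was higher. The fitted difference of -5.78 ± 0.35 (SE) became -3.70 with normexp background correction. In B2KO the mean was 5.63 ± 0.54, which is 6.15 ± 0.35 (SE) above WT or 71.1-fold.

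Fbp1 was lower without Bach1 in Bach2-deficient cells as well. The DD mean was 1.61 ± 0.38 (SD, n = 3), and DD minus B2KO was -4.02 ± 0.35 (SE, 95% interval -4.78 to -3.25), or 16.2-fold lower (adjusted p = 0.0001106, limma). Fitted on the B2KO and DD arrays alone, which the choice did not use, the difference was -4.02 ± 0.33 (adjusted p = 0.0009469). Every DD array lay below every B2KO array. Of all genes tested, 0.311% differed by more in either direction, and 3.56% passed the test in this comparison. Fbp1 was also above WT in DD, by 2.14 ± 0.35. The difference for Bach1 loss was thus negative with Bach2 and without it, the former resting on background spots in B1KO.

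**Figure D1:**
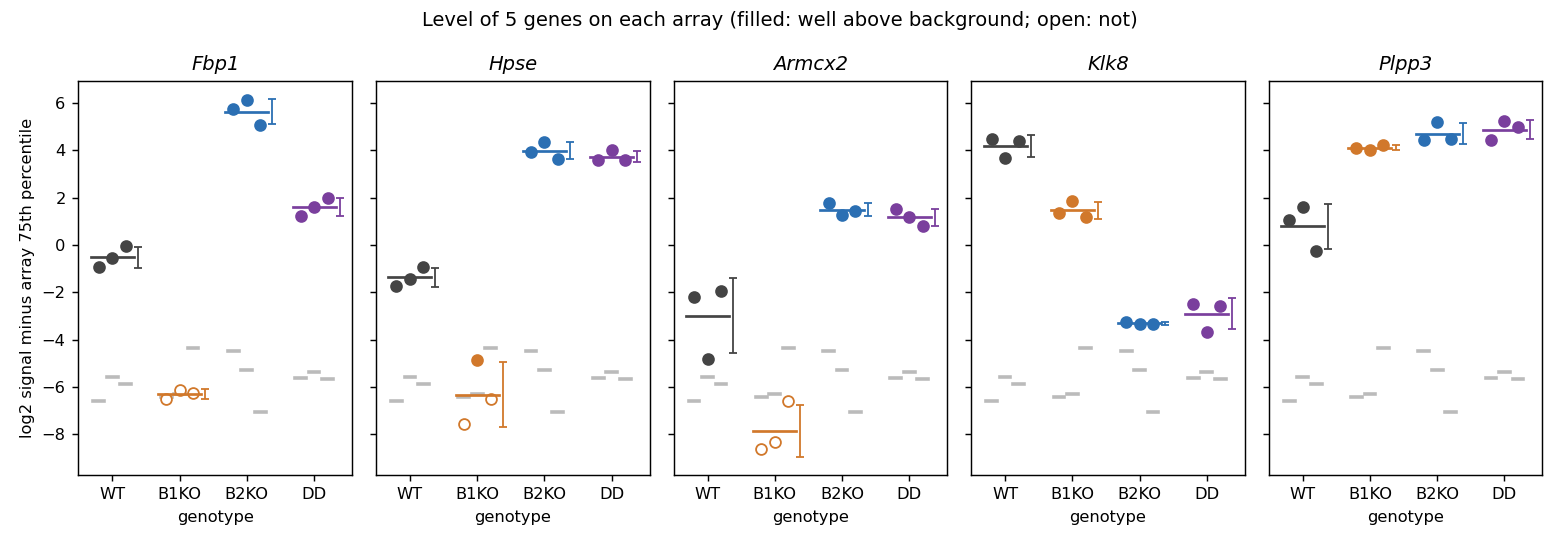
Level of each gene on each of the 12 arrays, as log2 signal minus the array's 75th percentile (vertical axis) by genotype, with the mean as a horizontal bar and the SD beside it. Filled points were well above background, open points were not, and grey ticks mark the lowest log2 level detected on each array. Fbp1, Hpse and Armcx2 lie at or near background in B1KO and are highest in B2KO, and Fbp1 is the one gene whose DD arrays all lie below its B2KO arrays.

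Hpse was low in WT and high wherever Bach2 was absent. Its log2 level was -1.76, -1.43 and -0.94 in WT and -7.57, -4.87 and -6.53 in B1KO, where replicate 2 alone was well above background. It was 3.92, 4.36 and 3.64 in B2KO and 3.59, 4.01 and 3.60 in DD. The B2KO and DD arrays overlapped, and both lay above WT, which lay above B1KO. The means were -1.38 ± 0.41 (SD, n = 3), -6.32 ± 1.36, 3.97 ± 0.36 and 3.73 ± 0.24 in WT, B1KO, B2KO and DD. The heparanase transcript was therefore 5.35 ± 0.55 (SE) higher in B2KO than in WT and 5.11 ± 0.55 higher in DD than in WT. DD minus B2KO was -0.24 ± 0.55 (95% interval -1.44 to 0.96, adjusted p = 0.848, limma), and the interval holds both a rise and a fall.

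A further Hpse probe, dimmer than the one used, gave a less even picture in WT. It read -6.60, -2.94 and 0.54 on the WT arrays, the first at background, and -6.51, -5.08 and -6.36 on the B1KO arrays, of which only the middle one was well above background. WT replicate 1 thus lay below all 3 B1KO arrays on this probe, 2 of them at background like itself. Its differences were -2.99 ± 1.24 (SE) for B1KO minus WT and 5.11 ± 1.24 for B2KO minus WT. The lowering in B1KO therefore rests on the brighter probe, while both probes were high in B2KO and DD. With normexp background correction the brighter probe's B1KO minus WT difference was -2.87 in place of -4.95 ± 0.55, and it ranged from -5.68 without B1KO replicate 2 to -4.33 without B1KO replicate 1.

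Armcx2 followed the same order as Hpse. The arrays read -2.19, -4.82 and -1.96 in WT and -8.63, -8.35 and -6.59 in B1KO, all 3 of the latter at background. They read 1.77, 1.24 and 1.44 in B2KO and 1.5, 1.19 and 0.78 in DD. WT replicate 2 stood well below the other WT arrays, and B2KO and DD overlapped. B1KO was at least 6.57-fold below WT (means -7.85 ± 1.11 and -2.99 ± 1.59, SD, n = 3), and the fitted difference of -4.86 ± 0.72 (SE) became -5.78 without WT replicate 2 and -2.44 with normexp background correction. B2KO was 4.47 ± 0.72 above WT, or 3.56 without WT replicate 2. DD minus B2KO was -0.33 ± 0.72 (95% interval -1.90 to 1.24, adjusted p = 0.843, limma), an interval that reaches beyond a 2-fold change on both sides.

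Klk8 ran the other way, highest in WT and lowest without Bach2. Its log2 level was 4.47, 3.66 and 4.4 in WT and 1.33, 1.86 and 1.18 in B1KO. It was -3.25, -3.34 and -3.36 in B2KO and -2.48, -3.66 and -2.59 in DD. All 12 spots were well above background. WT, B1KO and the Bach2-deficient arrays formed 3 levels with no overlap, and DD spanned the B2KO arrays. Against the WT mean of 4.18 ± 0.45 (SD, n = 3), B1KO was lower by a difference of -2.72 ± 0.37 (SE), or 6.60-fold, and B2KO was 180.4-fold lower. In Bach2-deficient cells the difference for Bach1 loss was 0.40 ± 0.37 (95% interval -0.40 to 1.204, adjusted p = 0.569, limma).

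Plpp3 was the one gene of the 5 that was higher in B1KO. Its log2 level was 1.04, 1.59 and -0.26 in WT, and 4.11, 4.0 and 4.22 in B1KO. It was 4.42, 5.20 and 4.49 in B2KO, and 4.42, 5.22 and 4.97 in DD. WT was low on all 3 arrays, with replicate 3 the lowest, and the 3 knockout genotypes sat close together, with B1KO just below both Bach2-deficient groups and those overlapping each other. B1KO was 9.98-fold and B2KO 15.0-fold above WT, as differences of 3.32 ± 0.41 and 3.91 ± 0.41 (SE). Without WT replicate 3 and B1KO replicate 3 the former was 2.74. DD was only 0.76 ± 0.41 above B1KO. DD minus B2KO was 0.17 ± 0.41 (95% interval -0.74 to 1.07, adjusted p = 0.86, limma), and its sign turned to -0.049 with quantile normalization, to -0.085 without scaling and to -0.0094 without DD replicate 2.

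Across the 5 genes, 1 of 5 passed the test in DD minus B2KO, Fbp1, against 3.56% of all genes (824 of 23118), where 1.45% were higher and 2.12% lower. That count ranged from 306 without B2KO replicate 1 to 1046 without WT replicate 3, and was 317 without DD replicate 1, 360 without B2KO replicate 3 and 433 without DD replicate 3. Fbp1 was also the one gene of the 5 whose DD and B2KO arrays did not overlap, against 35.2% of all genes. The sizes of the other 4 genes were unremarkable among all genes, since between 55.4% and 80.4% of genes differed by more. The difference between Bach1 loss without Bach2 and Bach1 loss with Bach2 was 1.77 ± 0.49 (SE) for Fbp1, 4.71 ± 0.78 for Hpse, 4.54 ± 1.01 for Armcx2, 3.13 ± 0.52 for Klk8 and -3.15 ± 0.59 for Plpp3. These contain the WT and B1KO arrays that chose the genes, so they carry no test.

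**Figure D2:**
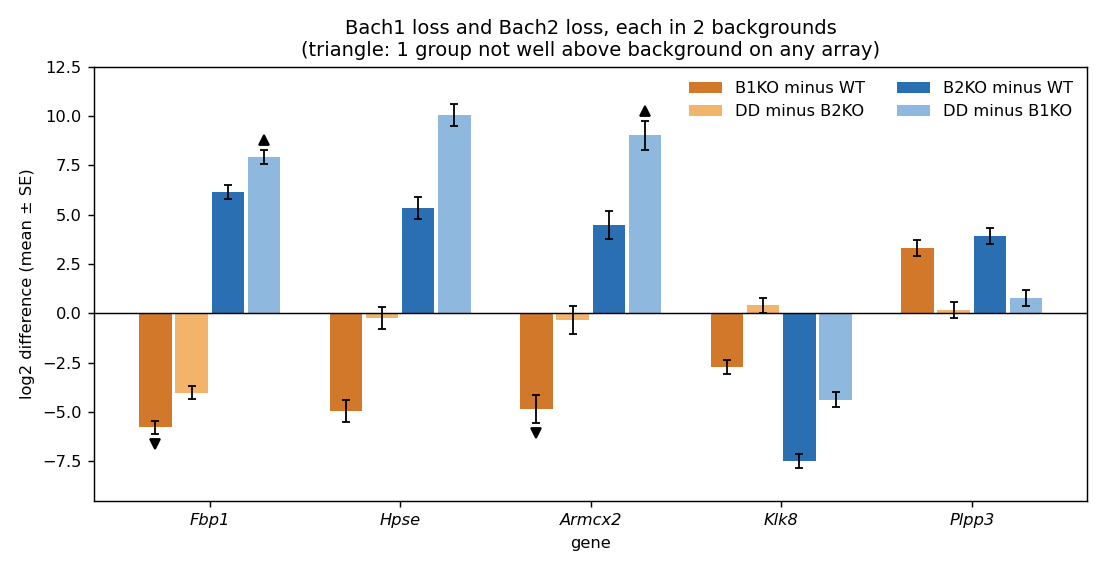
Log2 differences (bars, mean ± SE) for Bach1 loss with Bach2 present (B1KO minus WT) and absent (DD minus B2KO), and for Bach2 loss with Bach1 present (B2KO minus WT) and absent (DD minus B1KO). Triangles mark bars in which 1 group was at background on all arrays, so that the fitted difference is no measured fold. DD minus B2KO is -4.02 for Fbp1 and between -0.33 and 0.40 for the other 4 genes.

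The threshold of an adjusted p of 0.05 in B1KO minus WT, which all 5 genes passed, fell in a narrow run of genes. It was passed by 14 of 23118 genes or transcripts, or 0.0606%, of which 4 were higher (0.0173%) and 10 lower (0.0433%). Before adjustment 1228 lay under 0.05, and the arrays of 6.79% of all genes did not overlap between the groups. For the 5 genes these shares follow from the choice. Of the 11 with a gene name, the 6 others were the MHC class II genes H2-Ab1, H2-Eb1 and H2-Aa, the invariant chain gene Cd74, Tnfsf14 and Btla. Tnfsf14 and Btla are not MHC genes, so this threshold alone does not define the choice. Just inside lay Btla, an inhibitory lymphocyte receptor, at least 7.38-fold lower and at background in B1KO, and Armcx2. Just outside lay Tafa5 with -3.70 ± 0.57 (SE) and Thrb, a thyroid hormone receptor, at least 4.38-fold higher and at background in WT. The number past the threshold ranged from 7 without WT replicate 1 to 89 without WT replicate 2 and also without B1KO replicate 2, and was 23 without WT replicate 3 and 33 without B1KO replicate 1.

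With Bach2 missing, 4 of the 5 genes lay above WT and Klk8 below, without overlap of the arrays. In B2KO minus WT 37.1% of all genes passed the test, and the arrays of 50.5% did not overlap, so such a difference is common there. For Fbp1, Hpse and Armcx2 the loss of Bach1 and of Bach2 went in opposite directions from WT, and for Klk8 and Plpp3 in the same direction. Both comparisons share the WT arrays. Bach2 loss in cells without Bach1, DD minus B1KO, was 10.06 ± 0.55 (SE) for Hpse, with 2 of the 3 B1KO arrays at background and 7.81 ± 1.24 on its dimmer probe, at least 153.3-fold for Fbp1, at least 116.4-fold for Armcx2, -4.37 ± 0.37 for Klk8 and 0.76 ± 0.41 for Plpp3.

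Summed markers of dendritic cells, T cells and epithelium did not overlap between cells with and without Bach2. The sums for neutrophils, B cells, eosinophils, stroma and endothelium, and erythroid cells did overlap. The summed level of the 6 dendritic cell markers, in multiples of the array's 75th percentile, was 0.285 to 1.64 in WT, 0.334 to 2.05 in B1KO, 31.4 to 42.8 in B2KO and 16.6 to 44.0 in DD. Xcr1 was at background on every array of WT, B1KO and B2KO, and Cd209a on those of WT. Ccr7, the chemokine receptor of migrating dendritic cells, led the sum in the Bach2-deficient cells and was higher by 7.21 ± 0.84 (SE) in B2KO than in WT (adjusted p = 7.901e-05, limma). It read -2.29 in WT and -4.40 in B1KO, a difference of -2.11 ± 0.84 that did not pass (adjusted p = 0.8001). Of the 5 tested dendritic cell markers, 3 rose in B2KO minus WT: Ccr7, Flt3 and Cd209a. Clec9a (2.72 ± 1.49, adjusted p = 0.1731, limma) and Zbtb46 (-0.26 ± 0.34, adjusted p = 0.5838) did not pass there. The summed level of the 11 alveolar macrophage markers was 1426 to 1784 in WT, 1044 to 1674 in B1KO, 472 to 688 in B2KO and 448 to 694 in DD, and 9 of them fell in B2KO minus WT. This sum is carried by its brightest members. The largest falls were those of Siglecf (-6.33), Krt79 (-5.47) and Marco (-5.29), while Fabp4 (-0.58) and Mrc1 (-0.20) did not pass. In DD minus B2KO 4 of these 11 markers fell and 0 rose: Krt79 (-2.95), Marco (-2.81), Siglecf (-1.96) and Ear2 (-1.51). None of the 33 tested markers passed in B1KO minus WT (limma; 5 had an unadjusted p under 0.05). The part of these markers in the values of Fbp1, Hpse, Armcx2, Klk8 and Plpp3 was not tested, and in bulk RNA fewer cells of a type and less RNA per cell cannot be told apart.

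The T cell, neutrophil, epithelial and other markers ran as follows. The summed T cell markers, led by Cd2, lay at 77.6 to 146 in WT, 77.5 to 100.1 in B1KO, 12.1 to 14.1 in B2KO and 6.64 to 11 in DD, with Cd3d and Cd8a at background throughout WT and B1KO. Cd2 fell by 3.24 in B2KO minus WT, while 3 of the 5 tested T cell markers rose there: Lck by 3.62, Cd3g by 4.44 with 2 of 3 WT arrays at background, and Cd3d by at least 4.95-fold. Neutrophil markers summed to 1.54 to 5.10, 3.95 to 8.43, 0.372 to 3.29 and 5.83 to 8.78 in the same order, with Ngp at background on every array. S100a8, the brightest of them, differed by -1.54 ± 0.80 (SE) in B2KO minus WT and did not pass (adjusted p = 0.1541, limma), while S100a9 rose by 2.91 (adjusted p = 0.04653). S100a9 was well above background on only 1 WT array, and its B2KO and WT arrays overlapped. In DD minus B2KO S100a8 differed by 2.58 ± 0.80 and did not pass (adjusted p = 0.09997, limma). Epithelial markers summed to 13.03 to 15.5, 9.46 to 11.9, 20.5 to 23.2 and 19.5 to 23.8. Cdh1 rose by 2.28 in B2KO minus WT, while Epcam (-4.73) and Scgb1a1 (-2.13) fell. Stromal and endothelial markers lay between 0.956 and 2.10, B cell markers between 0.0766 and 0.534, and eosinophil markers between 0.0409 and 0.0649. Erythroid markers lay between 0.0175 and 1.94, the highest value in WT. The endothelial genes Cdh5 (at least 12.6-fold, from background in WT) and Pecam1 (1.37, log2) rose in B2KO minus WT, as did the B cell gene Cd79b (at least 19.98-fold, from background in WT).

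Genes that share a member's family or pathway were then read from lists. In B1KO minus WT no gene passed the test in any of the 6 lists (limma), neither among the 25 lysophospholipid and lipid phosphate genes nor among the 10 of the kallikrein list, the 16 of gluconeogenesis, the 13 of the Armcx list, the 29 of heparan sulfate or the 11 known Bach1 targets. Before adjustment 12 of these 104 genes lay under 0.05, 4 of them Bach1 targets. The list medians lay between -0.31 and -0.05, beside -0.07 over all genes. Adjusted p-values of the list genes under 0.2 belonged to Spns2, an exporter of sphingosine 1-phosphate, at -2.84 ± 0.59 (SE, adjusted p = 0.1746), to Gpc2, a heparan sulfate core protein, higher in B1KO and at background on all WT arrays (adjusted p = 0.1746), named after its values were seen, and to the Bach1 targets Hmox1 and Gclm, the latter at 1.51 ± 0.24 (adjusted p = 0.05623).

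**Figure D3:**
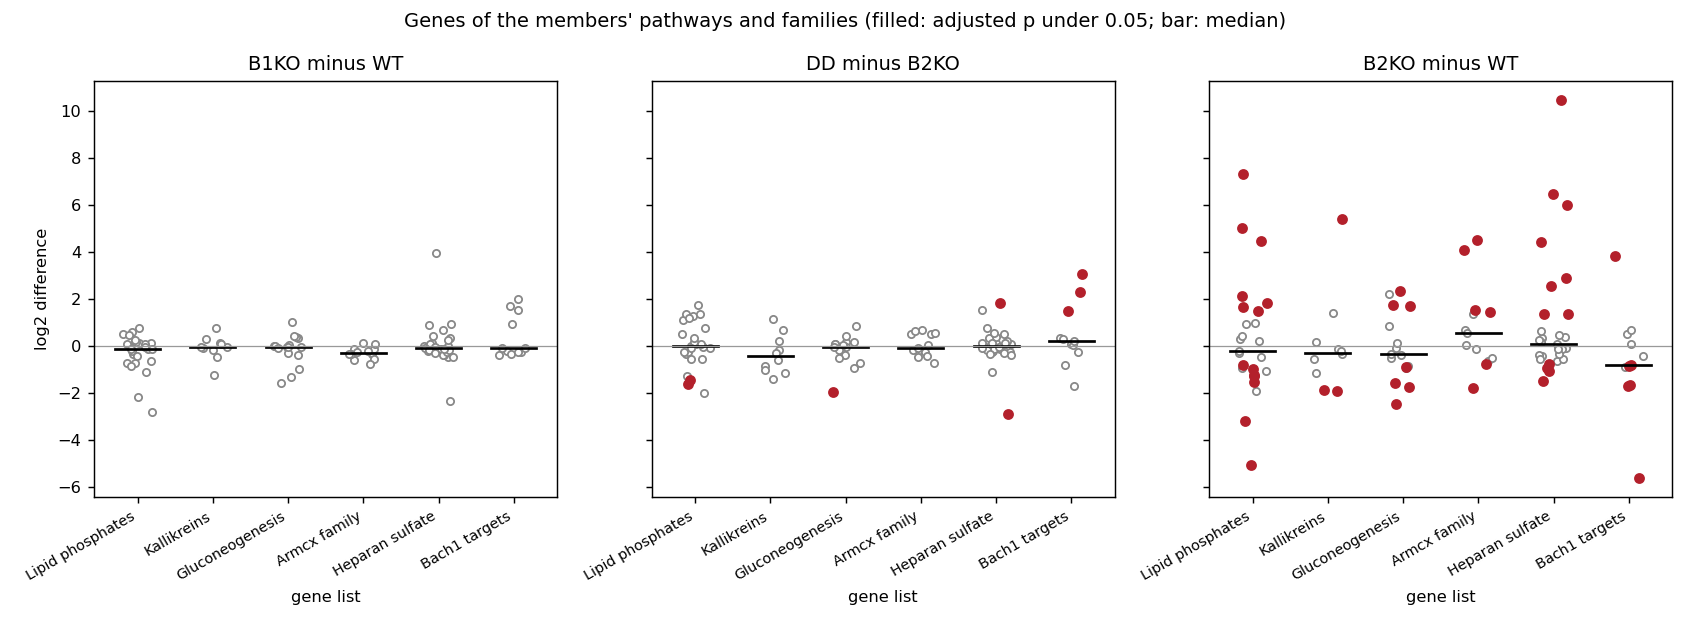
Log2 difference of each tested gene (points) in the 6 lists along the horizontal axis, in 3 comparisons, with filled points at an adjusted p under 0.05 and bars at the list medians. No point is filled for B1KO minus WT, and in DD minus B2KO the filled points above 0 are 3 Bach1 targets and Sdc1.

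Of the known Bach1 targets, 3 of 11 rose and 0 fell in DD minus B2KO, with a list median of 0.19 beside 0.03 over all genes, of which 1.45% rose and 2.12% fell. Hmox1, heme oxygenase, went from 5.0 ± 0.15 (SD, n = 3) to 7.28 ± 0.32, a rise of 2.28 ± 0.33 (SE, adjusted p = 0.003275, limma). Slc40a1, the iron exporter ferroportin, rose by 3.04 ± 0.54 (adjusted p = 0.01077), and Gclm, which serves glutathione synthesis and was named after its values were seen, by 1.49 ± 0.24 (adjusted p = 0.005761). Gclm did not pass without scaling. Nqo1, a target also named after its values were seen, went the other way. It differed by -1.70 ± 0.42 (SE) in DD minus B2KO and did not pass (adjusted p = 0.05137, limma). Beside Bach2 the B1KO minus WT values were 1.68 ± 0.33 for Hmox1 and 1.98 ± 0.54 for Slc40a1, which did not pass (adjusted p = 0.1461 and 0.3815). In B2KO minus WT, Slc40a1 fell by 5.62 and Blvrb, biliverdin reductase B, by 1.65, while Slc7a11, the cystine transporter, rose by 3.84; 1 target rose and 5 fell, where 12.4% of all genes rose and 24.7% fell.

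The lysophospholipid list holds the relatives of Plpp3 and the receptors of its substrates. In DD minus B2KO, 2 of 25 fell: Plpp1, a close relative of Plpp3 named after its values were seen, from 2.30 ± 0.11 to 0.68 ± 0.20 (SD, n = 3; adjusted p = 0.005048), and Lpar4, a lysophosphatidic acid receptor, by 1.44 (adjusted p = 0.03343). Lpar4 did not pass with the array median subtracted (adjusted p = 0.07016), with normexp background correction (-0.93, adjusted p = 0.09321) or with dim probes kept (adjusted p = 0.05253), nor without B2KO replicate 1, without B2KO replicate 2 or without any single DD replicate. In B2KO minus WT 7 rose and 7 fell, beside 12.4% and 24.7% of all genes. Sphk1, the kinase that makes sphingosine 1-phosphate, rose by 7.32 ± 0.42 (SE, adjusted p = 3.767e-07) and S1pr1, a receptor for it, by 5.03 ± 0.80. S1pr1 was well above background on only 1 WT array, and its rise was 2.42 in the alternative that gave the least. Lpar4 fell by 3.20 ± 0.32, and Spns2 was at least 14.1-fold lower and at background in B2KO. The Spns2 difference was -3.09 (log2) in the alternative that gave the least, short of that bound.

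Of the heparan sulfate list, read beside Hpse, 1 of 29 rose and 1 fell in DD minus B2KO. Hs3st1, a sulfotransferase that modifies heparan sulfate, fell by 2.91 ± 0.37 (SE, adjusted p = 0.001403, limma), from -0.56 ± 0.32 in B2KO to -3.47 ± 0.60 in DD (SD, n = 3), beside -3.47 ± 0.33 in WT. Sdc1, the core protein syndecan 1, rose by 1.81 ± 0.39 (adjusted p = 0.03024), and did not pass without scaling or without B2KO replicate 1, B2KO replicate 2 or any single DD replicate. In B2KO minus WT 8 rose and 4 fell, beside 12.4% and 24.7% of all genes. Sdc4, syndecan 4, went from background in WT to 2.56 ± 0.48 in B2KO, at least 383.5-fold higher, and Sdc1 was at least 34.1-fold higher. Extl1, a glycosyltransferase of this pathway, was at least 10.4-fold higher. In the alternative that gave the least, the rises were 6.94 for Sdc4, 3.23 for Sdc1 and 1.65 for Extl1 (log2), short of these bounds.

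The gluconeogenesis list, read beside Fbp1, had 1 of 16 genes lower in DD minus B2KO. Aldoc, an aldolase that splits or joins the substrate of fructose-1,6-bisphosphatase, fell from 3.45 ± 0.26 to 1.498 ± 0.19 (SD, n = 3; adjusted p = 0.001481, limma). Unlike Fbp1, Aldoc also fell in B2KO minus WT, by 2.49 ± 0.25 (SE), and read 5.94 ± 0.36 in WT and 5.91 ± 0.31 in B1KO (SD, n = 3). In B2KO minus WT 3 rose and 4 fell, beside 12.4% and 24.7% of all genes. Pfkl, a phosphofructokinase subunit, rose by 1.72 ± 0.26 (SE), Pfkfb4, which sets fructose 2,6-bisphosphate, fell by 1.75 ± 0.32, and Tigar, a fructose bisphosphatase, by 1.57 ± 0.38. Tigar did not pass without scaling (-0.88, adjusted p = 0.08062) or on slide 1 alone (-1.15, adjusted p = 0.05928). Fbp2, the muscle form of the enzyme and the neighbour of Fbp1 on chromosome 13, was too dim to be tested.

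The Armcx and kallikrein lists had no gene past the test in DD minus B2KO (limma), and 1 gene in each had an unadjusted p under 0.05. Of 13 Armcx and mitochondrial transport genes, 4 rose and 2 fell in B2KO minus WT, beside 12.4% and 24.7% of all genes. Armcx6 and Armcx3, which lie on one side of Armcx2 on chromosome X, rose by 4.07 ± 0.60 and 1.46 ± 0.21 (SE). Armcx6 was well above background on only 1 WT array, and its rise was 1.71 in the alternative that gave the least. Armcx1 was at least 8.98-fold higher, but its rise was 1.87 (log2) in the alternative that gave the least, short of that bound. Rhot2, a mitochondrial transport GTPase, fell by 1.79 ± 0.43. Rhot2 did not pass without scaling (-1.10, adjusted p = 0.06661), with the mean of its probes (-0.66, adjusted p = 0.2116) or on slide 1 alone (adjusted p = 0.05951). In B1KO minus WT Armcx6 and Armcx3 differed by -0.34 ± 0.60 and -0.31 ± 0.21, each with an adjusted p of 0.9999. Armcx2 was at background on all B1KO arrays, and so was Armcx6. Of 10 kallikrein-list genes, 1 rose and 2 fell in B2KO minus WT, against the same shares of all genes. F2r, a protease-activated receptor, was at least 12.7-fold higher, and Klk10, which lies beyond Klk9 from Klk8 on chromosome 7, fell by 1.95 ± 0.44, as did Spint1, a protease inhibitor, by 1.90 ± 0.33. Spint1 did not pass without scaling (-1.21, adjusted p = 0.06994). Klk9, the gene next to Klk8, differed by -0.57 ± 0.35 and did not pass (adjusted p = 0.2207). In B1KO minus WT Klk10 differed by 0.29 ± 0.44 and Klk9 by -0.06 ± 0.35. Klk11, another kallikrein, differed by 1.42 ± 0.60 in B2KO minus WT and did not pass (adjusted p = 0.08796).

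Likeness to each gene was measured as the root mean square difference of log2 values over 12 arrays after each gene's mean was removed, among 13060 named genes. Plpp3 lay closest to Tnfsf14, a cytokine gene, at 0.74, then Sash1 at 0.79 and Scx at 0.83, beside a median of 1.92 over all genes. Klk8 lay closest to Cpne5 at 0.79, Amer2 at 0.87 and Igflr1 at 0.89. Hpse lay closest to Prkcb, a protein kinase C gene, at 0.83, then Ank at 1.09 and the interleukin 1 receptor gene Il1r1 at 1.10. Armcx2 lay closest to Hpse at 1.11, then Btla at 1.19 and Zmynd15 at 1.27. Fbp1 had no neighbour nearer than Hpse at 1.501, followed by Il1r1 at 1.57 and Armcx2 at 1.61. The medians over all genes were 3.07 for Klk8, 4.39 for Hpse, 3.99 for Armcx2 and 4.43 for Fbp1. Among the 5 genes, Fbp1, Hpse and Armcx2 lay within 1.11 to 1.61 of each other, and every other pair lay between 3.81 and 6.90 apart. These distances include the WT and B1KO arrays that chose the genes, so they are a description without a test. Tnfsf14 and Btla had passed the same B1KO minus WT threshold as the 5 genes.

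**Figure D4:**
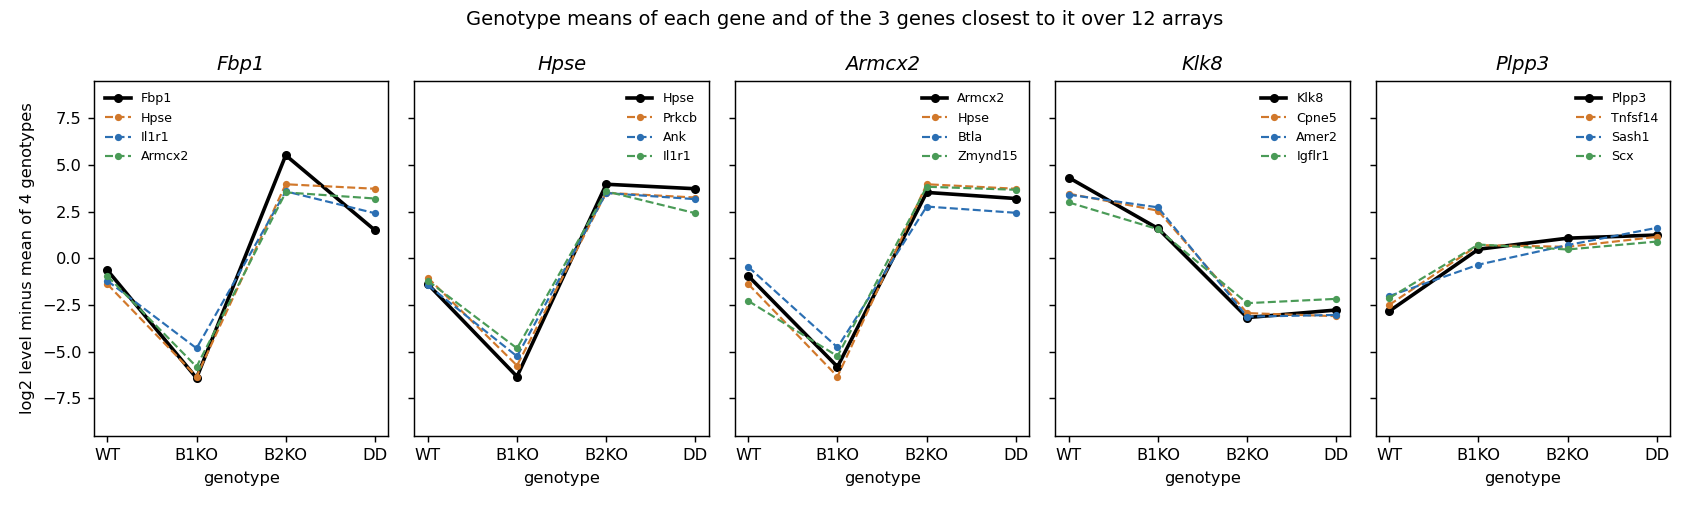
Genotype means (points) of each of the 5 genes in black and of the 3 genes closest to it in colour, as log2 level minus the gene's mean over the 4 genotypes. From B2KO to DD the mean level goes from 5.63 to 1.61 for Fbp1, from 3.97 to 3.73 for Hpse and from 1.48 to 1.16 for Armcx2.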

How the data were processed

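Each of 12 mice gave 1 single-colour Agilent array. The scanner files the authors deposited hold an intensity per spot. Per the file headers, Feature Extraction had subtracted background and detrended within each array, with no scaling across arrays. The headers name Feature Extraction 10.7.3.1, and the submitters' processing notes name version 9.1. The deposited series table holds log2 values per the values themselves, with every probe's median over the arrays at 0; they track the scanner signals (correlation per array at least 0.99996), and were used as an alternative. Processed signals were divided by the array's 75th percentile over non-control spots, and log2 was taken. Outlier spots were left out. Of 55681 probes, 30878 were well above background throughout at least 1 genotype (3 of 3 arrays) and were kept. Accessions named 26413 probes through RefSeq (GRCm38.p6), used for names and neighbours only, and the brightest probe stood for each gene. A gene at background on all arrays of 1 group is given as at least N-fold, after 75th-percentile scaling. Each such array enters at its lowest detected signal, or at the spot's own signal where that is higher. The bound belongs to this background correction. With normexp, Fbp1 and Armcx2 differed by -3.70 and -2.44 (log2) in B1KO minus WT, short of their bounds. The bounds given for list genes in B2KO minus WT were likewise not met in every alternative.

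Genes were fitted with limma 3.58.1 (R 4.3.3), with genotype means from all 12 arrays together, a trended variance prior and 8 residual degrees of freedom, and adjusted by Benjamini-Hochberg over 23118 genes or transcripts, with 0.05 as the threshold. The number of arrays limits the precision. On simulated data, the fit recovered 84% of genes changed by 4, 54% of those changed by 2 and 14% of those changed by 1 (log2) in DD minus B2KO. The simulated noise was normal and independent between arrays, with no slide effect and no background floor. These shares are therefore not the power of the tests on the measured arrays. The members and lists were chosen with earlier results of these data known. Of each list, up to 4 genes with the smallest adjusted p over 3 comparisons are named. Deviations of same-numbered mice of different genotypes correlated at a median of 0.035 (18 pairs, r from -0.149 to 0.383). For differently numbered mice the median was -0.0375 (36 pairs, r from -0.264 to 0.198). The main fit did not use numbers to pair, and a pairing within some genotypes alone was not tested. Alternatives covered background correction, scaling, filters, probe summary, variance prior, genotypes in the fit, slide, and each array left out; leaving out WT replicate 3 with B1KO replicate 3 and a term for slide row were chosen after seeing the data.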

Additional observations from a re-analysis of the deposited data

Results flagged for a closer look

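Among the named list genes, Hs3st1 and Aldoc had the smallest adjusted p for the interaction term of the limma fit. This term is the effect of Bach1 loss without Bach2 minus that with Bach2. The genes had been named by their smallest adjusted p in comparisons on the same arrays. Those comparisons included B1KO minus WT and DD minus B2KO, which make up this term. Its values are therefore given as a description, without a test, and the share of all genes with such a difference is not given. For Hs3st1 the term was -3.22 ± 0.52 (SE). The Hs3st1 level was -3.47 ± 0.33 (SD, n = 3) in WT, -3.15 ± 0.22 in B1KO, -0.56 ± 0.32 in B2KO and -3.47 ± 0.60 in DD. For Aldoc the term was -1.92 ± 0.35 (SE), with levels of 5.94 ± 0.36 (SD, n = 3) in WT, 5.91 ± 0.31 in B1KO, 3.45 ± 0.26 in B2KO and 1.498 ± 0.19 in DD. The DD arrays lie on a slide of their own, so genotype and slide cannot be told apart in either value.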

How the results depend on the processing

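Fbp1 kept its direction and its call in DD minus B2KO in all 26 alternatives that gave a value, from -4.48 to -3.78 (adjusted p from 2.12e-05 to 0.00144, limma). With probes kept only where well above background on all 12 arrays, 0 members were called, since Fbp1, Armcx2 and Hpse are then not tested. The DD minus B2KO difference of Plpp3 reversed to -0.049 with quantile normalization, -0.085 without scaling and -0.0094 without DD replicate 2, beside 0.17, and reached 0.415 without B2KO replicate 2. Genes called in B1KO minus WT numbered 14, and 27 with quantile normalization, 7 with the all-array filter, 2 with only these genotypes fitted, 4 on slide 1 alone, 34 without WT replicate 3 and B1KO replicate 3, 5 with slide row as a term, and 7 to 89 with each array left out. In DD minus B2KO 824 were called, and 1343 with quantile normalization, 1445 in the deposited table, 1883 with only these genotypes, 1290 without WT replicate 3 and B1KO replicate 3, and 306 to 1046 with each array left out. In B2KO minus WT 8581 were called, 4930 on slide 1 alone and 5997 to 9690 with each array left out. The cause was not tested in these cases. Scaling moved the split of B2KO minus WT from 2871 higher and 5710 lower to 4777 and 2165 without scaling and 3513 and 4380 with quantile normalization, and the median of all genes from -0.30 to 0.39 and -0.16; without scaling DD minus B2KO split into 118 higher and 463 lower. Of the 11 Bach1 targets, 1 or 2 passed in B1KO minus WT under 8 of 29 alternatives, against 0. With replicate number as a block, which the main fit did not use, DD minus B2KO called 748 genes and B1KO minus WT 10. In that DD minus B2KO fit Fbp1 was -4.02 (adjusted p = 0.0005331, limma). Signal near background limits the B1KO levels of Fbp1, Armcx2 and Hpse.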
